A study of Mus musculus with 7 samples.

Results

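Neurofibromin, the product of Nf1, and 9 genes of the RAS-ERK feedback circuit were followed across the cells of 7 mouse tumors. The 10 genes were picked by symbol, namely Nf1, Spred1, Spry1, Spry2, Spry4, Dusp4, Dusp6, Etv4, Etv5 and Fosl1, and all 10 were among the 33696 genes of the count matrices and had transcripts in tumor cells. All were grown from JW23.3 cells, a mouse malignant peripheral nerve sheath tumor (MPNST) line that the study describes as deficient in both Nf1 and Trp53, so that every tumor in both groups carries these mutations. The line was injected under the flank skin of immunocompetent female C57/B6 wildtype mice aged 5 to 6 weeks, whose own cells have intact Nf1, and tumors were taken 21 days later. The irradiated group held 4 tumors given 5 daily fractions of 2 Gy behind lead shielding, and the control group held 3 tumors that received no radiation. All tumors grew from 1 line, each was 1 library of the 10x 3′ droplet assay, and the tumor was the replicate.

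RAS proteins are switches that relay growth factor signals through the kinases RAF, MEK and ERK. Neurofibromin is a GTPase-activating protein that returns RAS to its inactive state, and SPRED1 carries it to the membrane, so that both restrain the pathway. Active ERK in turn raises transcription of its own brakes, among them the Sprouty proteins (Spry1, Spry2 and Spry4), which act on receptor signaling upstream of RAF, and the dual-specificity phosphatases DUSP6, which acts on ERK in the cytoplasm, and DUSP4, which acts in the nucleus. The transcription factors ETV4 and ETV5, of the ETS family, and FRA-1, the AP-1 subunit encoded by Fosl1, are common outputs of the pathway. Loss of neurofibromin is the event that defines neurofibromatosis type 1, the setting in which many MPNSTs arise.

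The libraries held 39537 called cells and 646559899 unique molecular identifiers (UMIs, the count of distinct transcripts), with a median of 6059 to 17931 UMIs per cell by library, and 34296 cells were kept. Cells were assigned to classes by marker genes that include none of the 10, and the tumor class was limited to cells without transcripts of Xist, which female host cells express. Of the macrophages 88.0% and of the T/NK cells 89.9% had an Xist transcript. This gave 15013 tumor cells, 12825 macrophages, 1350 T and NK cells (T/NK cells), 478 endothelial cells, 323 fibroblasts, 200 dendritic cells and 186 pericytes, while 3795 cells (11.1%) met no gate. Of the tumor cells, 1202 lay near the limits of their gate. Classes were made from expression alone, and 98.8% of gated cells fell in the same class when 26 clusters were used. The libraries were also divided into 2 sets, called technical sets here, by cell number, depth, genes per cell and mitochondrial share. Of 63 possible splits, the one with least variation within sets was taken, and it left a share of 0.489 within them (0.544 for the next). The sets crossed the groups (control 1 with irradiated 2, 3 and 4, and control 2 and 3 with irradiated 1). Such a search always returns a split, no label names a batch, and the source of the sets is not known. Levels are given as CPM, the UMIs of a gene per 1000000 UMIs of a class in a tumor, and serve to compare 1 gene between classes, not different genes. In macrophages, the summed level of 19 genes known to rise with tissue dissociation ran from 12012 to 15950 CPM, against 1796 to 8340 CPM in tumor cells, where control 3 (8340) and irradiated 2 (7939) stood above the other 5. Transcripts of 2 tumor markers gauge free RNA in host droplets, and in macrophages Crabp1 stood at a median of 1.86% and Col11a1 at 0.99% of their tumor cell level.

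Nf1 transcripts were plentiful in the mutant cells. In tumor cells, Nf1 stood at 322, 333, 327 and 423 CPM in irradiated 1 to 4 and at 377, 347 and 240.4 CPM in control 1 to 3. Trp53, the gene of the tumor suppressor p53 and the other mutated gene of the line, stood at 153.5 to 202 CPM in tumor cells and at 60.9 to 73.4 CPM in macrophages. Neither gene was at or near 0 in any tumor. The assay counts tags near the 3′ end of a transcript and the exact alleles of the line are not given in the sources used here, so these counts check neither the genotype nor the protein. Nf1 spans chr11:79339693-79581612 on the plus strand of GRCm38, and Evi2a, Evi2b and Omg lie inside it on the minus strand. In macrophages, Evi2a stood at 124 ± 8.49 CPM and Evi2b at 151 ± 14.8 CPM (SD, n = 7), against 10.0 ± 1.97 and 5.13 ± 0.941 CPM in tumor cells, and Omg was under 1 CPM in both. Whether counting used the strand is not given in the sources used here, so transcripts of Nf1 and of these nested genes cannot be told apart with certainty. Against macrophages, tumor cells had more Nf1 and less Evi2a and Evi2b, whereas against endothelial cells, pericytes and fibroblasts both Nf1 and Evi2a were higher in tumor cells (Evi2a by 3.35, 3.22 and 1.34 on the log2 scale).

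The promoters of 4 of the 6 genes with an entry in the RefSeq promoter table are shown: Spry1 and Spry2, which were both highest in pericytes, Dusp6, which was highest in macrophages, and Nf1. Sequences are the bases just before the gene start in RefSeq (GRCm38.p6), 5′ to 3′ on the strand of the gene. Capitals mark the letters CGGAA or their complement TTCCG, 1 form of the site that ETS factors such as ETV4 and ETV5 read. The shorter core GGAA was not marked or counted, and it occurs in the Spry1 and Spry2 sequences too.
Spry1, chr3:37639697-37639946 (plus strand): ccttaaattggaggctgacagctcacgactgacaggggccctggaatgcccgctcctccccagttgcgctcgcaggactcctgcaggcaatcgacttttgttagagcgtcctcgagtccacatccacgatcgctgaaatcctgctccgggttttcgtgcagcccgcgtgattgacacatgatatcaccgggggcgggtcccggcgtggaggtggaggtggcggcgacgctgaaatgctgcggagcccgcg
Spry2, chr14:105896820-105897069 (minus strand): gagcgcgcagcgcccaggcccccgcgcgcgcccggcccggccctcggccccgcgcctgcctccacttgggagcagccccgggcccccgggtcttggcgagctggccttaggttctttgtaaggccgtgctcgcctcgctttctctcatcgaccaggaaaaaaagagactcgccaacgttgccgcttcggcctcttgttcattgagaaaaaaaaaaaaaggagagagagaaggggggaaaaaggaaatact
Dusp6, chr10:99262981-99263230 (plus strand): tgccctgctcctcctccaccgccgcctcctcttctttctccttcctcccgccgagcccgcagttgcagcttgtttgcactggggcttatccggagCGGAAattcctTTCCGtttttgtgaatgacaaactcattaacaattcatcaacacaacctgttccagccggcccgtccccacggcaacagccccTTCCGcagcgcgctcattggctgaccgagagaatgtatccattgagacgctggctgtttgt
Nf1, chr11:79339642-79339692 (plus strand): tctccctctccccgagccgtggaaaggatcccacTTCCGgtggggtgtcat
The 250 bases before Dusp6 held 3 matches and those before Spry1 and Spry2 held 0, while the 51 bases printed for Nf1, those before the annotated start, held 1. Of 32851 mouse promoters of 250 bases, 25.2% held at least 1 match on either strand. None of these windows held a match to TGANTCA, the AP-1 site (6.75% of all promoters), or to TGACG, the core of a cAMP response element (17.8%). The motif letters were chosen after the sequences were seen, and a match is a description of these windows only. Spred1 and Etv5 also had an entry in the RefSeq table. The 250 bases before Spred1 held 1 match to CGGAA. Both windows of Etv5, which like Dusp6 was highest in macrophages, held 0, so the matches did not follow the class. Spry4, Dusp4, Etv4 and Fosl1 had no entry.

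The 10 genes did not share 1 order of cell classes. By mean level over 7 tumors, tumor cells were highest for 3 genes (Nf1, Etv4 and Fosl1), pericytes for 3 (Spry1, Spry2 and Spry4), macrophages for 2 (Dusp6 and Etv5), T/NK cells for 1 (Dusp4) and fibroblasts for 1 (Spred1). In contrasts of tumor cells with each host class, with the tumor as a block, edgeR's quasi-likelihood test called 8 of the 10 genes against macrophages (6 higher and 2 lower in tumor cells), where 85.0% of the 15223 genes tested were called, 43.6% higher and 41.4% lower. All 10 were called against T/NK cells (8 higher and 2 lower, with 74.4% of all genes called, 44.8% higher and 29.6% lower), 8 against dendritic cells (8 higher, with 60.6% called and 38.6% higher), 5 against endothelial cells (4 higher and 1 lower, with 57.1% called, 32.4% higher and 24.7% lower), 9 against fibroblasts (7 higher and 2 lower, with 49.3% called, 29.5% higher and 19.8% lower) and 8 against pericytes (4 higher and 4 lower, with 43.6% called, 26.0% higher and 17.6% lower). So many genes separate these classes that a call alone says little, and the direction and size for each gene are described. The median log2 fold change of the 10 genes was 1.06 against macrophages (0.04 over all genes tested), 2.04 against T/NK cells (0.35) and 0.08 against pericytes (0.22). These medians are not read as an excess of the group, since they include genes that did not pass the low-count filter within the host class. In T/NK cells these were Spry4, Etv4, Etv5 and Fosl1, on 8, 5, 22 and 5 UMIs. Scaling mattered most against macrophages. With library totals in place of TMM factors, the median of all genes moved from 0.04 to 0.52 and the genes called split into 8710 higher and 4557 lower in tumor cells, against 6637 and 6308 with TMM. Against dendritic cells the median of all genes moved from 0.47 to 0.62 with DESeq2 size factors. Of the 8 genes called there, Spry1 had 0 UMIs in dendritic cells and Spry2, Spry4, Etv4 and Fosl1 had 1 UMI each, so that their fitted fold changes are not given. In fits within 1 host class, 9 of the 10 genes passed the low-count filter in macrophages, 6 in T/NK cells, 6 in endothelial cells, 5 in pericytes, 4 in fibroblasts and 2 in dendritic cells. The others entered the contrasts through tumor cells, so that those higher there were bound to differ, and these are described by level and UMIs, without a fold.

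**Figure D1:**
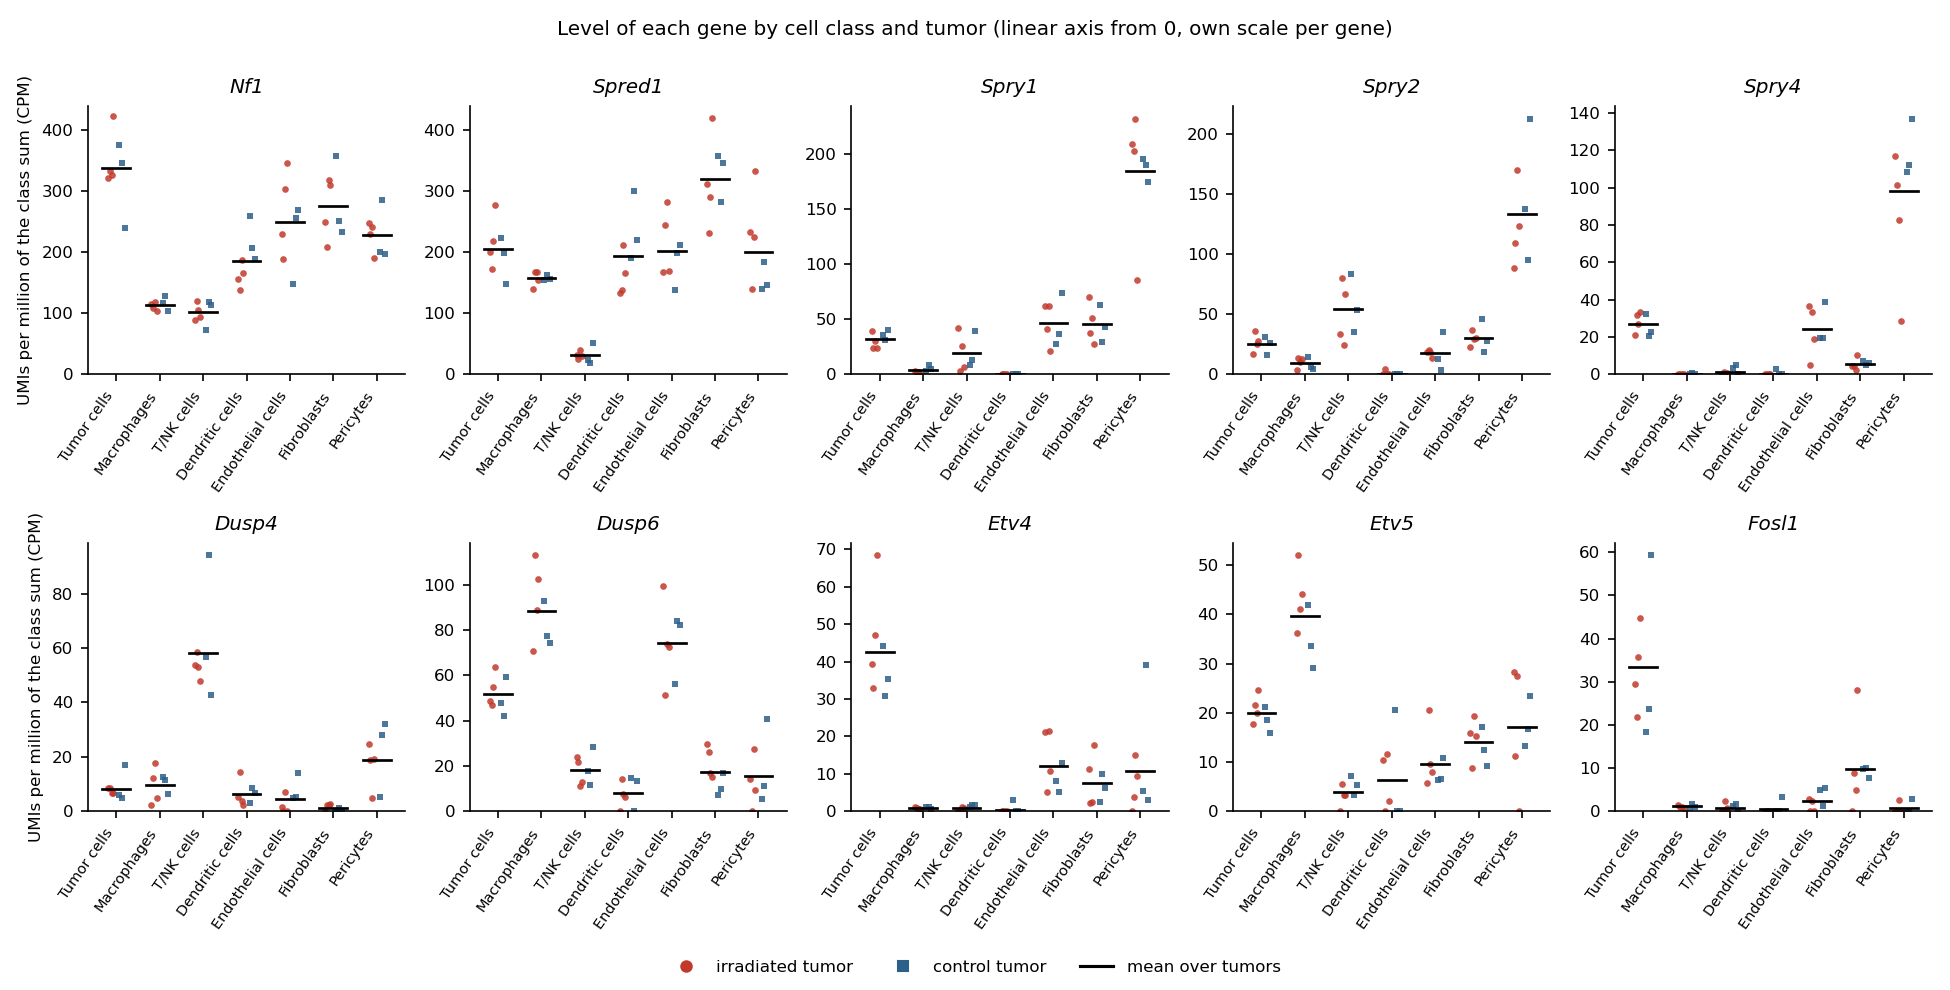
Level of each gene in CPM (linear axis from 0, own scale per gene) in 7 cell classes, with 1 point per tumor (red circles, 4 irradiated; blue squares, 3 control) and a bar at the mean over tumors. Spry1, Spry2 and Spry4 peak in pericytes, Dusp4 in T/NK cells, Dusp6 and Etv5 in macrophages, and Etv4 and Fosl1 in tumor cells.

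Nf1 was higher in tumor cells than in each of the 6 host classes. It averaged 338 ± 55.9 CPM in tumor cells (SD, n = 7), against 114 ± 8.69 CPM in macrophages, where its range of 103 to 128 CPM lay wholly under that of tumor cells. In T/NK cells it averaged 102 ± 17.6 CPM. Fibroblasts (276 ± 53.9 CPM), endothelial cells (249 ± 67.2 CPM), pericytes (228 ± 34.1 CPM) and dendritic cells (187 ± 39.7 CPM) lay between, and these 4 overlapped with their neighbors in this order, except that dendritic cells lay above macrophages in 7 of 7 tumors. The log2 fold change of tumor cells over host cells was 1.09 ± 0.08 (SE) against macrophages (2.13-fold, adjusted p = 2.5e-07) and 1.73 ± 0.13 against T/NK cells (3.31-fold, adjusted p = 9.0e-11), with tumor cells higher in 7 of 7 tumors each time. It was smaller against dendritic cells (0.70 ± 0.18), pericytes (0.53 ± 0.13), endothelial cells (0.43 ± 0.16, adjusted p = 0.023) and fibroblasts (0.34 ± 0.12, adjusted p = 0.027). The call against fibroblasts was lost without any 1 of irradiated 1, 2 or 4 or control 2 or 3 (log2 fold changes of 0.28 to 0.32, adjusted p of 0.059 to 0.082) with library totals (0.29, adjusted p = 0.058) and with DESeq2 size factors (0.27, adjusted p = 0.068), although tumor cells were higher in 7 of 7 tumors. The call against endothelial cells was lost without control 1 (0.26, adjusted p = 0.090).

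Spred1, whose product recruits neurofibromin to the membrane, did not follow Nf1 in every class. It was highest in fibroblasts, at 232 to 420.2 CPM (320.3 ± 60.7, SD, n = 7), and lower in tumor cells of all 7 tumors (206 ± 40.6 CPM; log2 fold change -0.61 ± 0.12, adjusted p = 0.00036). In T/NK cells it fell to 31.9 ± 10.9 CPM, a level 6.49-fold below that of tumor cells (log2 fold change 2.70 ± 0.16, adjusted p = 2.9e-12). Endothelial cells (202 ± 49.8 CPM), pericytes (200.2 ± 70.6 CPM) and dendritic cells (194 ± 57.6 CPM) overlapped with tumor cells and were not called. In macrophages, Spred1 stood at 158 ± 9.83 CPM and its direction rested on the scaling, with a log2 fold change of -0.11 ± 0.09 (adjusted p = 0.28) under TMM and 0.36 ± 0.11 (adjusted p = 0.0083) with library totals.

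**Figure D2:**
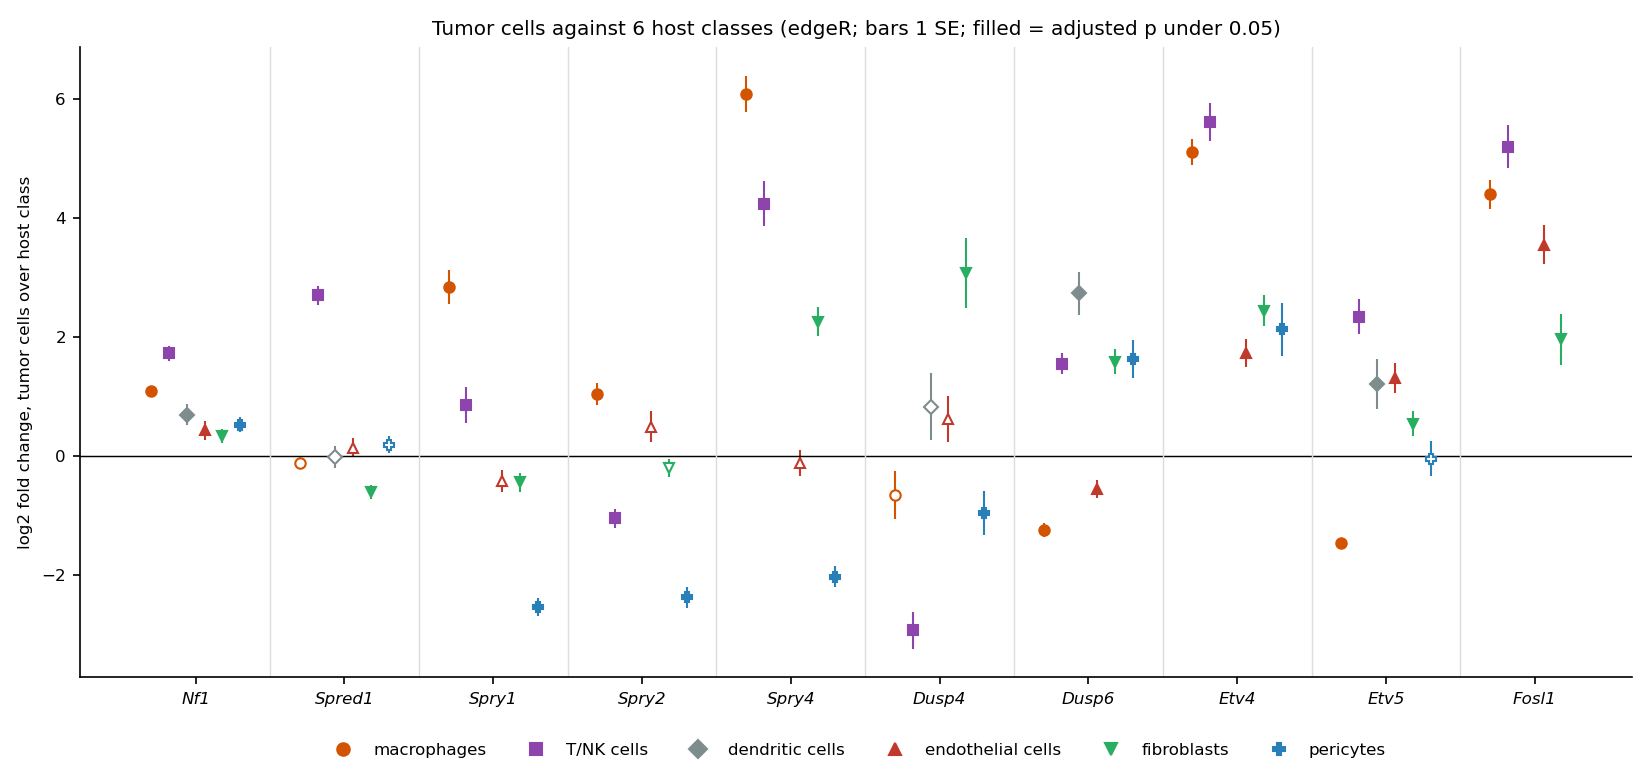
Log2 fold change of tumor cells over each of 6 host classes for the 10 genes (edgeR's quasi-likelihood test, bars 1 SE), with filled symbols for adjusted p under 0.05 and classes with at most 3 UMIs of a gene left out. Symbols above 0 of genes that did not pass the low-count filter within a host class were bound to differ and are not read. Nf1 lies above 0 against all 6 classes, the 3 Sprouty genes lie near or below -2 against pericytes, and Dusp6 and Etv5 lie below -1 against macrophages.

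All 3 Sprouty genes were highest in pericytes, the mural cells of small vessels. Spry1 stood at 209, 203, 232 and 85.6 CPM in pericytes of irradiated 1 to 4 and at 196, 190.3 and 175 CPM in those of control 1 to 3, against 23.8 to 40.3 CPM in tumor cells. Spry2 ran from 88.6 to 213 CPM in pericytes (median 124) and from 16.4 to 36.2 CPM in tumor cells. Spry4 ran from 28.5 to 137 CPM in pericytes (median 108) and from 20.4 to 33.4 CPM in tumor cells. The ranges of Spry1 and Spry2 in the 2 classes did not overlap, and that of Spry4 overlapped through the pericytes of irradiated 4, which numbered 10 cells and were left out of the fit. Over the 6 other tumors, tumor cells were lower by 2.54 ± 0.15 for Spry1, 2.37 ± 0.17 for Spry2 and 2.03 ± 0.18 for Spry4 on the log2 scale (5.83-, 5.18- and 4.07-fold, adjusted p = 3.0e-22, 3.9e-18 and 6.4e-15), each in 6 of 6 tumors. The summed level of the 19 dissociation genes was 6461 to 21035 CPM in pericytes and 1796 to 8340 CPM in tumor cells, and its part in these differences was not tested.

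Outside pericytes the Sprouty genes went separate ways. Spry1 averaged 46.4 ± 19.9 CPM in endothelial cells and 46.0 ± 16.3 CPM in fibroblasts (SD, n = 7), against 32.1 ± 6.72 CPM in tumor cells, 19.7 ± 16.2 CPM in T/NK cells and 3.68 ± 2.70 CPM in macrophages. Tumor cells were above macrophages by 2.84 ± 0.29 on the log2 scale (7.15-fold, adjusted p = 5.1e-06). No Spry1 UMI was found in the 200 dendritic cells, which allows up to 1.44 CPM for a limit of 3 UMIs over that class. The smaller differences of Spry1 were unstable. Against T/NK cells (0.86 ± 0.30, adjusted p = 0.019) the call was lost without irradiated 4 (0.71, adjusted p = 0.052), without control 2 (0.82, adjusted p = 0.050) and without the tumor block (0.80, adjusted p = 0.074). Against fibroblasts (-0.44 ± 0.16, adjusted p = 0.029) it was lost without any 1 of irradiated 1, 2 or 3 or control 1 (-0.41 to -0.36, adjusted p of 0.061 to 0.11), without the low-count filter (-0.36, adjusted p = 0.11) and without the block (-0.48, adjusted p = 0.075). Against endothelial cells Spry1 was not called (-0.42 ± 0.18, adjusted p = 0.053), yet it was without control 1 (-0.58, adjusted p = 0.0079), with library totals (-0.46, adjusted p = 0.037), without the cell filter (-0.49, adjusted p = 0.016) and with classes from clusters (-0.47, adjusted p = 0.024).

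Spry2 was the only one of the 3 that was lower in tumor cells than in T/NK cells. It averaged 54.1 ± 23.6 CPM in T/NK cells and 25.7 ± 7.18 CPM in tumor cells (log2 fold change -1.05 ± 0.16, adjusted p = 7.8e-06), and T/NK cells were higher in 6 of 7 tumors. In macrophages it averaged 9.46 ± 4.40 CPM, and tumor cells were 2.06-fold higher (1.04 ± 0.18, adjusted p = 0.00035, 7 of 7 tumors). Fibroblasts stood at 30.3 ± 9.17 CPM and endothelial cells at 17.7 ± 9.66 CPM, and neither contrast was called, although the contrast with endothelial cells passed the threshold without control 3 (0.85, adjusted p = 0.012), without the low-count filter (0.65, adjusted p = 0.023) and without the cell filter (0.58, adjusted p = 0.038).

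Spry4 was almost absent from immune cells. Macrophages held 29 UMIs of Spry4 over 12825 cells and 0 to 0.583 CPM by tumor, against 20.4 to 33.4 CPM in tumor cells. T/NK cells held 8 UMIs and dendritic cells 1 UMI. The macrophage level of Spry4 was a median of 1.39% of the tumor cell level. The tumor markers Crabp1 (1.01 to 3.78%) and Col11a1 (0.27 to 2.30%) had ranges that held this value in the same cells, and free RNA as its source was not tested. Endothelial cells (24.6 ± 12.2 CPM) and tumor cells overlapped (-0.11 ± 0.21, adjusted p = 0.67), whereas fibroblasts stood at 2.42 to 10.2 CPM on 22 UMIs, under the range of tumor cells.

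The phosphatase genes had opposite patterns in host immune cells. Dusp6 was highest in macrophages, at 70.6, 113, 88.9 and 102 CPM in irradiated 1 to 4 and at 92.6, 77.5 and 74.3 CPM in control 1 to 3. In tumor cells it stood at 42.0 to 63.5 CPM, so that the ranges did not overlap. The log2 fold change of tumor cells over macrophages was -1.24 ± 0.12 (2.36-fold lower, adjusted p = 2.0e-06, 7 of 7 tumors). Dusp6 was also lower in tumor cells than in endothelial cells (74.1 ± 16.5 CPM, SD, n = 7; -0.55 ± 0.15, adjusted p = 0.0034), and higher than in T/NK cells (18.2 ± 6.78 CPM; 1.55 ± 0.18, adjusted p = 1.0e-07). Fibroblasts (17.4 ± 8.06 CPM), pericytes (15.5 ± 14.1 CPM) and dendritic cells (8.07 ± 6.39 CPM) held 73, 34 and 17 UMIs of Dusp6. The dissociation genes, among which Dusp1 is a phosphatase gene of the same family, were higher in macrophages too, and their part in the Dusp6 difference was not tested.

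Dusp4 was highest in T/NK cells, at 42.8 to 94.1 CPM (median 53.8), against 4.78 to 17.2 CPM in tumor cells, with no overlap. Tumor cells were lower by 2.93 ± 0.31 on the log2 scale (7.61-fold, adjusted p = 8.6e-06, 7 of 7 tumors). Fibroblasts held 4 UMIs of Dusp4 in all (0 to 2.55 CPM). The contrast with macrophages (9.61 ± 5.25 CPM, SD, n = 7) was not called (-0.65 ± 0.41, adjusted p = 0.16), but passed the threshold without irradiated 1 (-0.92, adjusted p = 0.045). The contrast with pericytes (5.00 to 32.1 CPM; -0.95 ± 0.37, adjusted p = 0.030) was lost without any 1 of irradiated 1 or 2 or control 2 or 3 (-0.98 to -0.72, adjusted p of 0.070 to 0.13), without the low-count filter (-0.87, adjusted p = 0.071) and without the tumor block (-0.96, adjusted p = 0.20).

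The transcription factor genes of the group divided between tumor cells and macrophages. Etv4 stood at 39.4, 33.0, 47.0 and 68.4 CPM in tumor cells of irradiated 1 to 4 and at 44.1, 30.9 and 35.4 CPM in those of control 1 to 3, and at 0.464 to 1.23 CPM in macrophages. The ranges did not overlap, and the log2 fold change was 5.11 ± 0.21 (34.5-fold, adjusted p = 3.5e-09). Its macrophage level was a median of 2.73% of that in tumor cells, within the range of Crabp1 (1.01 to 3.78%) and above that of Col11a1 (0.27 to 2.30%), so that free RNA as its source was not settled. T/NK cells, fibroblasts, pericytes and endothelial cells held 5, 32, 18 and 50 UMIs of Etv4, at means of 0.932, 7.47, 10.8 and 12.1 CPM.

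Etv5, the close relative of Etv4, ran the other way. It stood at 36.1, 52.0, 41.1 and 44.2 CPM in macrophages of irradiated 1 to 4 and at 41.9, 33.6 and 29.0 CPM in those of control 1 to 3, against 15.9 to 24.6 CPM in tumor cells, with no overlap. Tumor cells were lower by 1.46 ± 0.08 on the log2 scale (2.75-fold, adjusted p = 1.6e-08, 7 of 7 tumors), and by CPM alone macrophages stood at 180 to 241% of the tumor cell level. T/NK cells held 22 UMIs of Etv5 (3.96 ± 2.27 CPM, SD, n = 7), dendritic cells 15 (6.38 ± 7.99 CPM), endothelial cells 34 (9.64 ± 5.11 CPM) and fibroblasts 55 (14.0 ± 4.02 CPM). Etv5 did not pass the low-count filter within fibroblasts, so that its call against them is not read. That call was lost with DESeq2 size factors, with library totals and with classes taken from clusters. Pericytes (17.2 ± 10.1 CPM) overlapped with tumor cells.

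Fosl1 was highest in tumor cells too, and varied among tumors. In tumor cells it stood at 29.5, 21.9, 35.7 and 44.7 CPM in irradiated 1 to 4 and at 18.5, 23.7 and 59.3 CPM in control 1 to 3. Control 3 was thus the highest, and it also had the highest Dusp4 level (17.2 CPM, with 4.78 to 8.44 CPM in the others), the highest dissociation gene level and the largest share of cycling tumor cells (30.3%, with 18.2 to 28.5% in the others). Macrophages held 0.772 to 1.61 CPM of Fosl1, a median of 4.44% of the tumor cell level. Tumor cells were above macrophages by 4.40 ± 0.24 on the log2 scale (21.1-fold, adjusted p = 3.7e-08). Fibroblasts held 34 UMIs (9.84 ± 8.74 CPM), endothelial cells 12, T/NK cells 5, pericytes 2 and dendritic cells 1.

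Among 3 subsets of T/NK cells, Dusp4 was highest in Foxp3 T cells and Spry2 in NK cells, while Cd8a T cells held both. Most of the 1350 cells of the class, and most of its 317 UMIs of Dusp4, lay outside these subsets. Cells were split, after the class levels had been seen, into 193 Foxp3 T cells (the marker of regulatory T cells), 241 Cd8a T cells (cytotoxic T cells) and 51 NK cells without CD3 transcripts. Dusp4 stood at 126, 76.1, 109 and 88.1 CPM in Foxp3 T cells of irradiated 1 to 4 and at 104.5, 212 and 132 CPM in those of control 1 to 3. In Cd8a T cells it stood at 0 to 51.9 CPM, under the Foxp3 T cells of the same tumor in 7 of 7 tumors. Foxp3 T cells held 109 UMIs of Dusp4 and Cd8a T cells 21. Dusp4 passed the low-count filter through Foxp3 T cells, where it is high, so that it was bound to differ and no fold is given. Of the group, 1 of the 2 genes that entered the fit was called, against 29.3% of all 3155 genes. The other, Nf1, averaged 66.1 ± 24.2 CPM in Foxp3 and 108 ± 32.7 CPM in Cd8a T cells (SD, n = 7) and was not called (-0.68 ± 0.26, adjusted p = 0.056), although it was without irradiated 2 (-0.88, adjusted p = 0.019), with DESeq2 size factors (-0.70, adjusted p = 0.048) and without the tumor block (-0.67, adjusted p = 0.043). NK cells held 1 UMI of Dusp4.

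Spry2 had the reverse order. The 51 NK cells, 4 to 11 per tumor, held 156 UMIs of Spry2, or 397 CPM when pooled (95% exact Poisson interval 337 to 465, counting error only), and UMIs were present in 7 of 7 tumors at 148 to 511 CPM. Cd8a T cells held 34 UMIs in 241 cells (26.1 CPM pooled, 18.0 to 36.4), and Foxp3 T cells held 0 in 193 cells, which allows up to 2.88 CPM for a limit of 3 UMIs. With so few cells no test was made for NK cells, and the values are a description. Dusp6 held 14 UMIs in NK cells, 23 in Cd8a T cells and 4 in Foxp3 T cells.

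**Figure D3:**
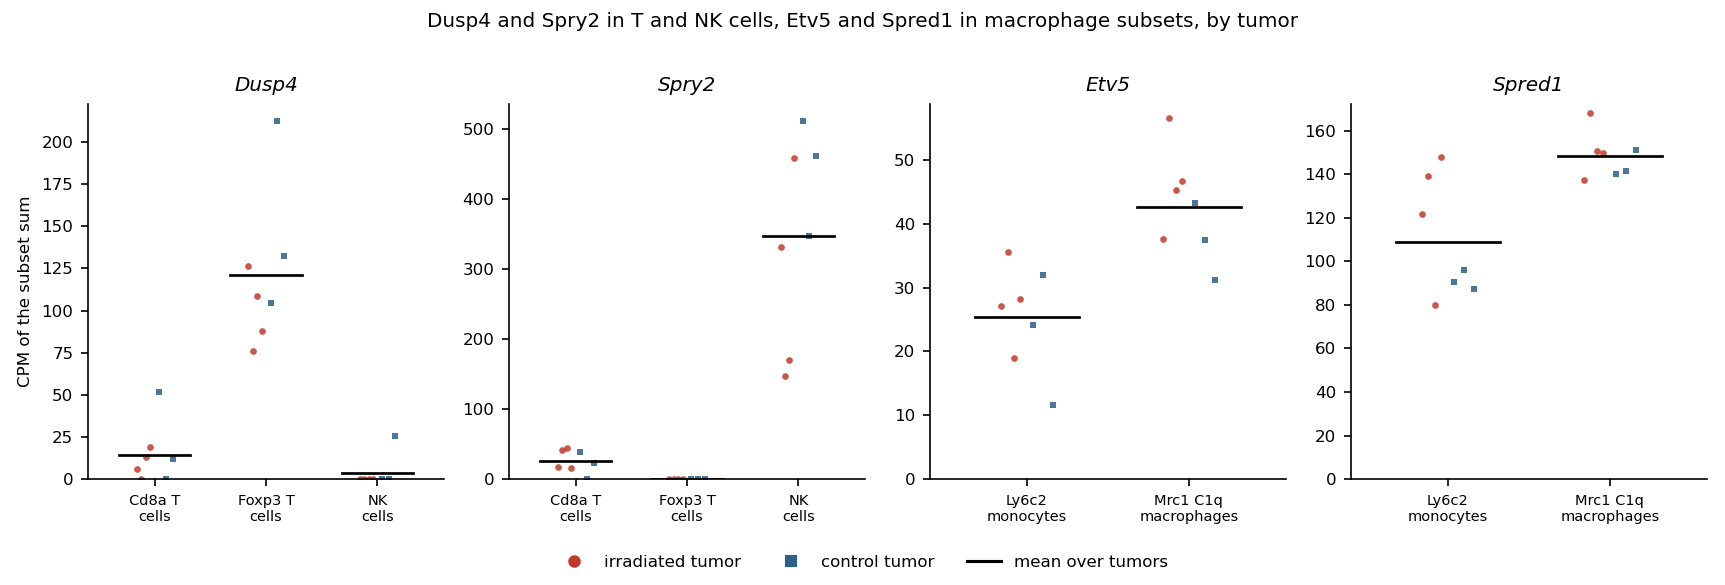
Levels in CPM (linear axes from 0) of Dusp4 and Spry2 in 3 subsets of T/NK cells and of Etv5 and Spred1 in 2 subsets of macrophages, with 1 point per tumor and a bar at the mean. Dusp4 is highest in Foxp3 T cells, Spry2 is highest in NK cells and at 0 in Foxp3 T cells of all 7 tumors, and Etv5 and Spred1 are higher in Mrc1 C1q macrophages than in Ly6c2 monocytes.

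Among macrophages, Etv5 and Spred1 separated cells with Mrc1 and C1q from monocytes. The 8890 macrophages with Mrc1 and C1q transcripts and no Ly6c2 were set against 529 cells with Ly6c2, a marker of inflammatory monocytes, and no C1q, a split also chosen after levels had been seen. Etv5 stood at 31.3 to 56.6 CPM in the former and 11.7 to 35.6 CPM in the latter (0.84 ± 0.19, 1.79-fold, adjusted p = 0.00023), and Spred1 at 137 to 168 and 80.0 to 148 CPM (0.49 ± 0.13, 1.41-fold, adjusted p = 0.0011), each higher in 7 of 7 tumors although the ranges over tumors overlapped. These were 2 of the 6 genes that could be tested, with 37.3% of all genes called. Dusp6 averaged 92.0 ± 17.0 and 83.8 ± 25.7 CPM (SD, n = 7) and was not called (0.17 ± 0.14, adjusted p = 0.35), and neither were Nf1, Spry2 and Dusp4. The monocytes were shallower (2844 to 8799 UMIs per cell by tumor, against 4981 to 14237).

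Tumor cells with and without transcripts of the cell cycle differed in 8 of the 10 genes, a share close to that of all genes. Cycling cells carried at least 3 of 8 cell cycle markers (3521 cells) and were compared with tumor cells that carried none (6819 cells), with the tumor as a block. Fosl1, Etv4, Etv5, Dusp4 and Dusp6 were higher and Nf1, Spred1 and Spry1 lower in cycling cells, while Spry2 and Spry4 were not called, so that 8 of 10 were called where 78.9% of the 14688 genes tested were, 38.6% higher and 40.2% lower. Fosl1 stood at 4.10, 9.68, 8.68 and 11.3 CPM in the non-cycling cells of irradiated 1 to 4 and at 4.34, 3.98 and 26.9 CPM in those of control 1 to 3. In cycling cells of the same tumors it stood at 69.5, 44.7, 69.3, 82.8, 46.2, 56.8 and 97.0 CPM. The ranges did not overlap, and the log2 fold change was 3.15 ± 0.29 (8.87-fold, adjusted p = 1.4e-05). Over all tumor cells, 10033 of the 13101 UMIs of Fosl1 came from the cycling cells. These cells were also deeper, at 32453 to 56914 UMIs per cell by tumor against 12553 to 24059 in the non-cycling cells, which adds to that share.

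The other 4 genes that rose in cycling cells did so by less. Etv4 averaged 58.6 ± 11.2 CPM in cycling and 30.9 ± 13.9 CPM in non-cycling cells (SD, n = 7), a log2 fold change of 1.15 ± 0.11 (2.22-fold, adjusted p = 1.9e-06, 7 of 7 tumors). Dusp6 averaged 66.9 ± 6.14 and 39.8 ± 9.40 CPM (0.93 ± 0.10, 1.90-fold, adjusted p = 7.0e-06, 7 of 7 tumors). Dusp4 averaged 10.3 ± 4.37 and 6.49 ± 4.15 CPM (0.93 ± 0.17, adjusted p = 0.00045, 6 of 7 tumors), a call that was lost without the tumor block (0.81, adjusted p = 0.063). Etv5 ran from 18.0 to 27.8 CPM in cycling and from 13.5 to 23.9 CPM in non-cycling cells (0.41 ± 0.07, 1.33-fold, adjusted p = 0.00010, 6 of 7 tumors).

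Of the 5 upstream restraints, Nf1, Spred1 and Spry1 fell and Spry2 and Spry4 were not called. Nf1 stood at 299 to 552 CPM in non-cycling cells (median 429) and at 180 to 307 CPM in cycling cells (median 228), lower in 7 of 7 tumors, and fell by 0.70 ± 0.05 on the log2 scale (1.62-fold, adjusted p = 9.9e-09). Spry1 fell from 46.7 ± 7.93 to 16.3 ± 6.98 CPM (-1.40 ± 0.14, 2.64-fold, adjusted p = 4.3e-06). Spred1 fell from 234 ± 51.1 to 170 ± 33.8 CPM (-0.31 ± 0.05, 1.24-fold, adjusted p = 0.00011), again in 7 of 7 tumors each. Spry4 ran from 20.2 to 36.2 CPM in cycling and from 19.7 to 36.5 CPM in other cells (0.10 ± 0.09, adjusted p = 0.28). Spry2 was lower in cycling cells in 7 of 7 tumors but was called only with library totals in place of TMM (-0.26, adjusted p = 0.0032, against -0.11, adjusted p = 0.16), a scaling that moved the median of all genes from -0.03 to -0.18 and turned Spry4 to -0.05. Without the low-count filter Spry4 passed the threshold (0.21, adjusted p = 0.025). Evi2a, nested in Nf1, was higher in cycling cells (2.26 ± 0.11) while Evi2b was not called (0.01 ± 0.11). The cycling cells were deeper (32453 to 56914 UMIs per cell by tumor, against 12553 to 24059) and had less of the dissociation genes (1428 to 4954 CPM, against 2021 to 11872 CPM), and the part of the latter was not tested. With only cells of at least 10000 UMIs, the 8 calls stood, with values of -0.69 for Nf1, -1.42 for Spry1 and 3.15 for Fosl1.

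**Figure D4:**
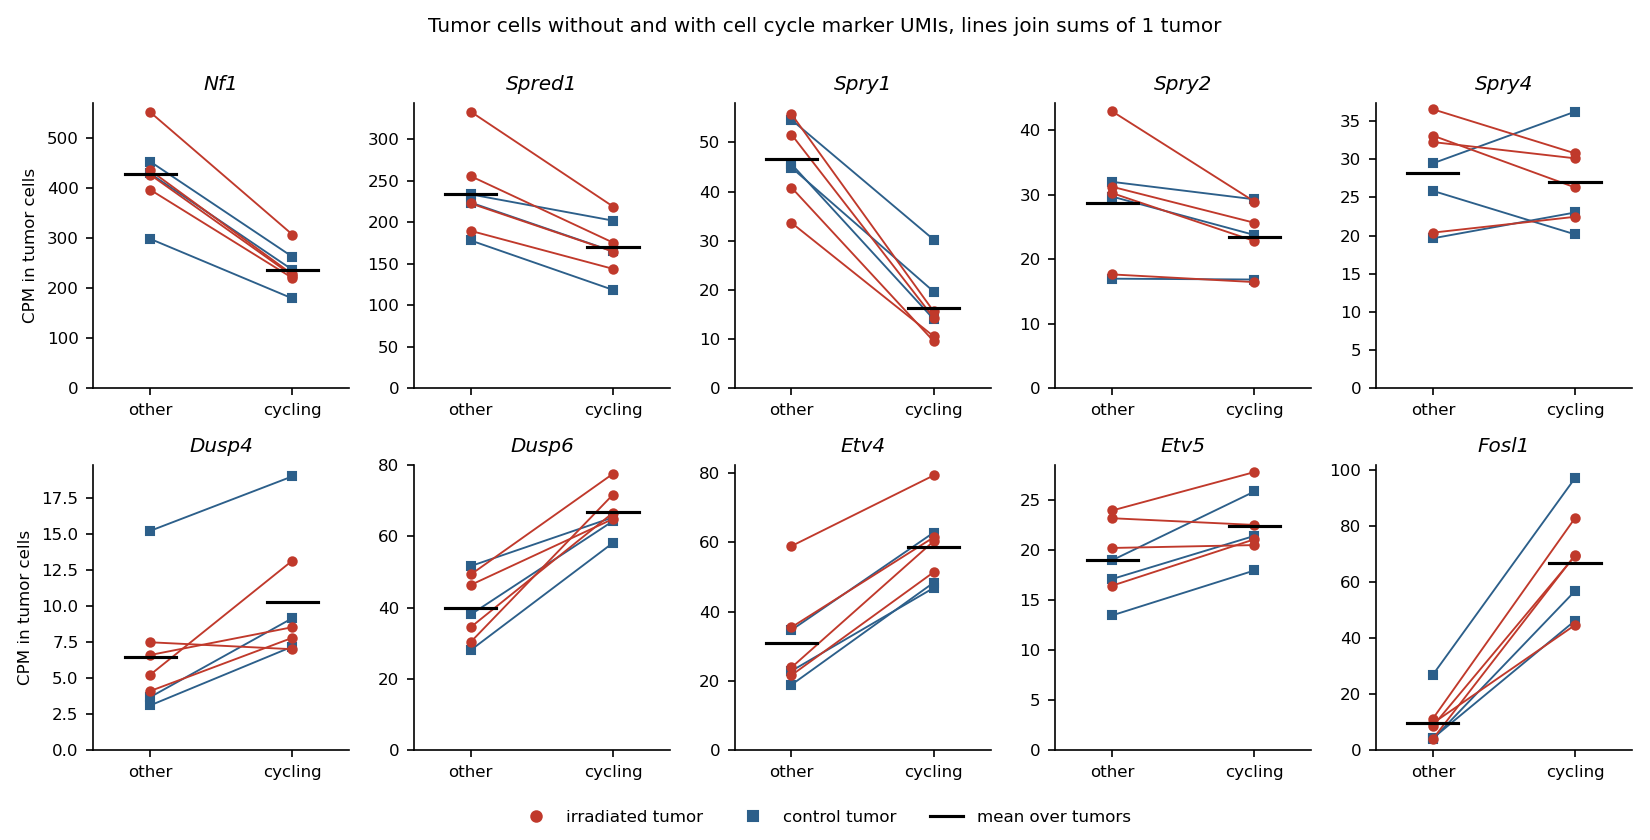
Level of each gene in CPM (linear axes from 0) in tumor cells without (other) and with (cycling) cell cycle transcripts, with lines joining the 2 sums of 1 tumor and bars at the means. Fosl1, Etv4 and Dusp6 rise and Nf1, Spred1 and Spry1 fall from other to cycling cells in all 7 tumors.

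No change with irradiation was detected in those of the 10 genes that could be tested in a class. In tumor cells, edgeR's quasi-likelihood test called 0 of the 10 genes and 0 of 17385 genes (0.0%) at a threshold of 0.05, with 215 genes and none of the 10 under an unadjusted p of 0.05, and DESeq2 called 1 gene. Log2 fold changes of irradiated over control ran from -0.41 ± 0.45 for Dusp4 to 0.29 ± 0.21 for Etv4, and the smallest unadjusted p was 0.14 (Spry1, -0.35 ± 0.22). Nf1 differed by 0.08 ± 0.15, Spred1 by 0.14 ± 0.16, Dusp6 by 0.03 ± 0.16 and Etv5 by 0.12 ± 0.12. For all 10 genes the groups overlapped, and 2.55% of genes with at least 20 UMIs in tumor cells had groups that did not. Leaving out control 3 turned the signs of Dusp4 (to 0.49), Fosl1 (from -0.16 ± 0.44 to 0.62) and Nf1, leaving out irradiated 4 turned Nf1 too and took Etv4 to 0.06, and leaving out irradiated 1 took Spry1 to -0.58, with none called.

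In macrophages, 9 of the 10 genes could be tested and 0 were called, as were 0 of 13154 genes (0.0%), with 727 under an unadjusted p of 0.05 and 5 called by DESeq2. Spry1 came nearest. It stood at 2.70, 2.61, 2.24 and 0.607 CPM in macrophages of irradiated 1 to 4 and at 3.50, 8.97 and 5.10 CPM in those of control 1 to 3, on 374 UMIs in all. The groups did not overlap, and Spry1 was the only one of the 10 genes of which this was true, where 5.41% of genes showed no overlap. The log2 fold change was -1.56 ± 0.50, and the edgeR test gave an unadjusted p of 0.015 and an adjusted p of 0.79. Within the technical sets the log2 ratio of means was -0.95 (3 irradiated and 1 control) and -1.38 (1 irradiated and 2 control). The difference between tumor cells and macrophages in the irradiation effect on Spry1 was 1.21 ± 0.45 (adjusted p = 0.94), and 0 of the 10 genes and 0.0% of 16598 genes were called in that test, with 838 under an unadjusted p of 0.05. The 12 tumor markers, summed, were also lower in macrophages of irradiated (46.5 to 124 CPM) than of control tumors (96.8 to 151 CPM), and their part in the Spry1 values was not tested. Etv5 had a log2 fold change of 0.30 ± 0.15 (adjusted p = 0.79).

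**Figure D5:**
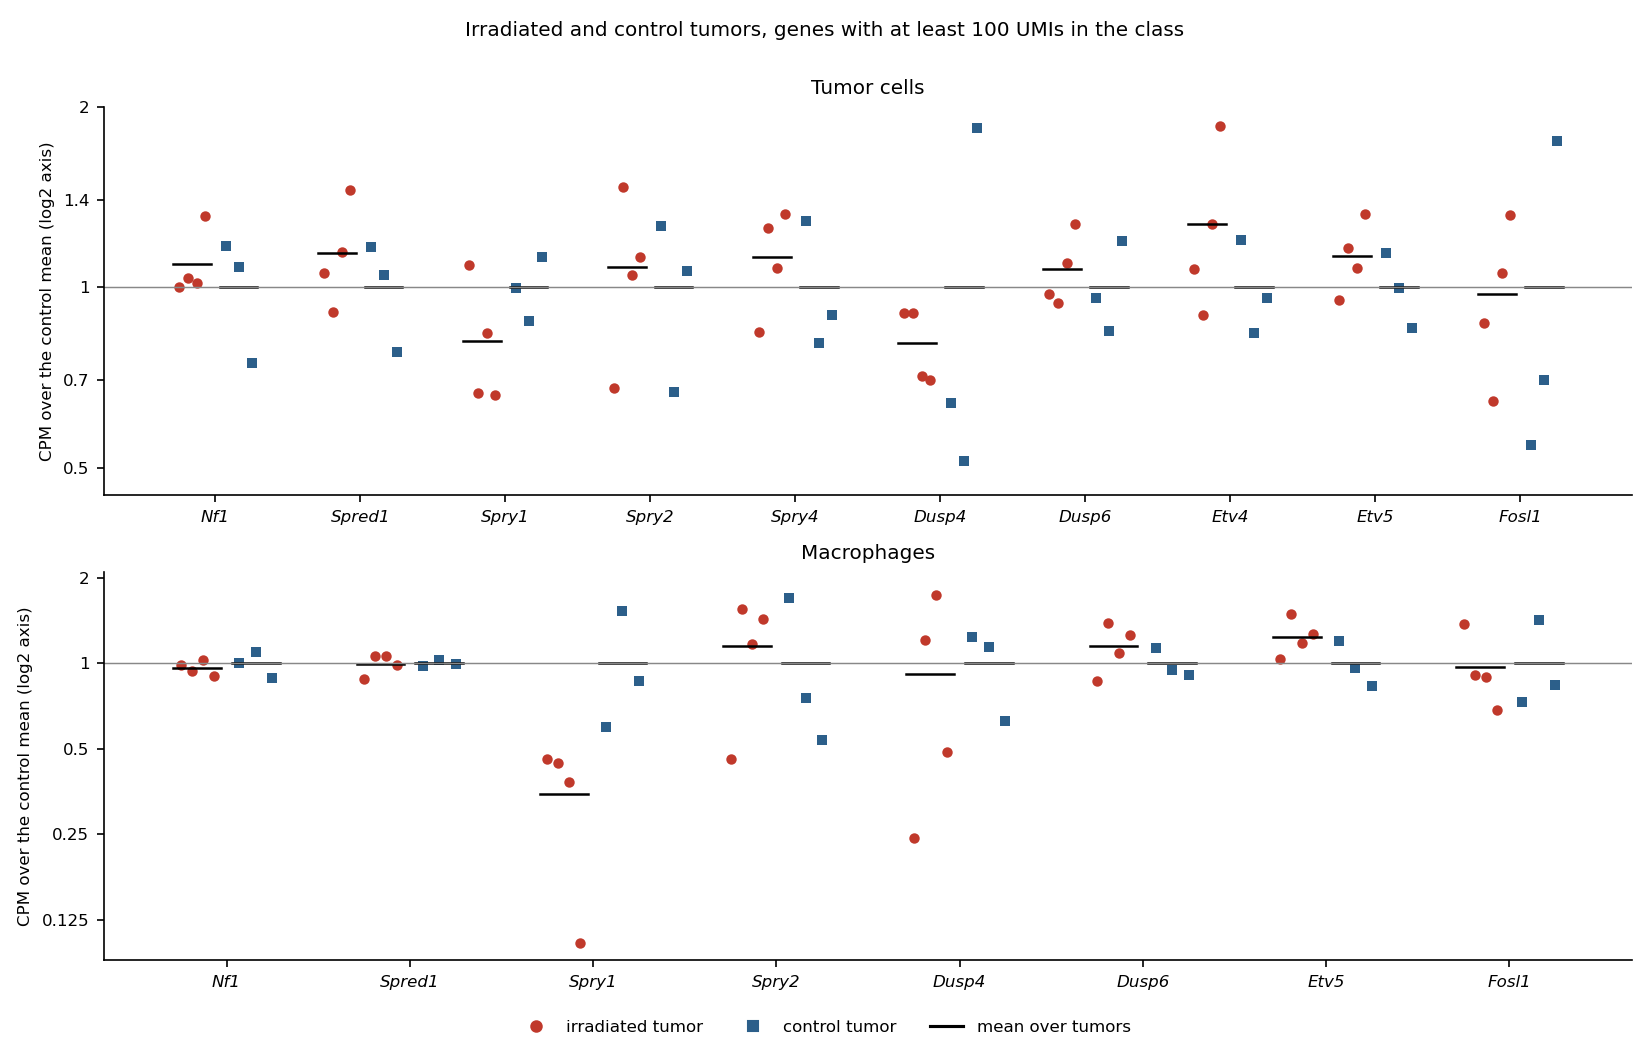
Level in each tumor divided by the mean of the 3 control tumors (log2 axis), in tumor cells and in macrophages, for genes with at least 100 UMIs in the class, with 4 irradiated (red circles) and 3 control tumors (blue squares) and bars at the means. The groups overlap for every gene in tumor cells, and in macrophages they are apart for Spry1 alone.

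The remaining classes had fewer testable genes. In T/NK cells 6 of the 10 could be tested, in endothelial cells 6, in pericytes 5, in fibroblasts 4 and in dendritic cells 2, and edgeR's quasi-likelihood test called 0 of them in each, with 0.0% of all genes called in each class. DESeq2 called 1 gene in T/NK cells and 6 in fibroblasts, none of them a member of the group, and 0 in the other 3 classes. The groups did not overlap for 0 of 7 genes of the group with at least 20 UMIs in T/NK cells (7.08% of all genes), 0 of 9 in endothelial cells (4.66%), 0 of 9 in fibroblasts (4.38%) and 0 of 8 in pericytes (4.66%). In T/NK cells Dusp4 differed by -0.34 ± 0.24 and Spry2 by -0.25 ± 0.43. The largest differences were in dendritic cells, where Nf1 stood at 157, 188 and 167 CPM in irradiated 1, 3 and 4 and at 261, 207 and 189 CPM in control 1 to 3 (-0.43 ± 0.24, adjusted p = 0.997) and Spred1 differed by -0.50 ± 0.27. Nf1 was 1 of the 2 testable genes without overlap between groups there, with irradiated 2, at 138.5 CPM in 17 cells, outside the fit, and 6.06% of genes showed none. In endothelial cells Nf1 differed by 0.35 ± 0.25, and in pericytes Spry1, Spry2 and Spry4 by 0.19 ± 0.22, -0.30 ± 0.34 and -0.28 ± 0.26. Unadjusted p values under 0.05 were found for 434 genes in T/NK cells, 360 in endothelial cells, 122 in pericytes, 179 in fibroblasts and 170 in dendritic cells, none of them among the 10.

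The wider pathway differed between tumor cells and macrophages without 1 common direction, where 43.6% of all 15223 genes were higher in tumor cells and 41.4% lower. Of 15 genes for RAS proteins and their activators, 4 were higher in tumor cells and 7 lower, led by the exchange factors Rasgrp1 (-6.85 ± 0.24), Rasgrp3 (-6.57 ± 0.33) and Rasgrp2 (-3.22 ± 0.31), which load RAS with GTP in blood cells. Of the 9 testable genes for other RAS GTPase-activating proteins (GAPs) and the RAS regulator Lztr1, 5 were higher and 4 lower, with Dab2ip (4.67 ± 0.17) high in tumor cells and Rasal3 (-7.95 ± 0.22), a GAP of blood cells, high in macrophages. In the RAF-MEK-ERK cascade 3 of 10 were higher and 6 lower, the largest being the scaffold Ksr1 (2.08 ± 0.15), the ERK1 gene Mapk3 (-1.39 ± 0.07) and the MEK1 gene Map2k1 (-1.06 ± 0.06). Of 12 further ERK feedback genes 5 were higher and 7 lower, with Dusp1 (-4.17 ± 0.45), Ier3 (-3.20 ± 0.32) and Dusp2 (-3.17 ± 0.44) at the front, and Dusp1 and Ier3 are also on the dissociation list. Of 18 further ERK output genes 8 were higher and 8 lower, among them the chromatin factor Hmga2 (6.22 ± 0.40), the EGF family ligand Ereg (5.93 ± 0.35) and the transcription factor Egr3 (4.21 ± 0.21), all high in tumor cells. Of 13 receptor tyrosine kinases 9 were higher and 4 lower, with Pdgfra (5.99 ± 0.34) high there and Csf1r (-9.12 ± 0.18) and Kdr (-6.61 ± 0.38) low. Each of these is on a marker list that took part in gating: Csf1r for macrophages, Pdgfra for fibroblasts and Kdr for endothelial cells.

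Of the 19 dissociation genes, 16 were lower in tumor cells than in macrophages and 2 higher, led by the heat shock gene Hspa1a (-8.26 ± 0.16). In cycling against other tumor cells, all 8 testable genes of the RAS GAP list were lower, as Nf1 was, where 40.2% of all genes were lower, and 8 of 11 receptor tyrosine kinases were lower and 2 higher. Of 12 further feedback genes 7 were higher and 3 lower, and 14 of the 19 dissociation genes were lower and 0 higher. Irradiation called 0 genes of any list in any class.

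The genes whose levels followed those of the group most closely over the 46 sums of a class and a tumor were, for Nf1, Stk3 (Pearson r = 0.909 of log2 CPM) and Scmh1, and, for Spred1, Zfp608, Nav1 and Atrnl1. For Spry1 they were Cnrip1 (0.925), Dcbld2 and Clstn1, for Spry2 Cnrip1 (0.880), Arhgap10 and Camk2n1, and for Spry4 B130024G19Rik (0.941), Adamts9 and Tbx3. Dusp4 was followed by Inpp4b (0.770), Sun2 and Phtf2, Dusp6 by Xylt2 (0.789), Nutf2-ps1 and Prkab1, Etv4 by Rftn2 (0.870), Pcdhb16 and Ptk7, Etv5 by Tpcn2 (0.802), Tlr4 and Gemin6, and Fosl1 by Gm19610 (0.764), Gpr39 and Efemp1. Within the group the closest pairs were Spry1 and Spry2 (r = 0.866) and Spry1 and Spry4 (0.767), Nf1 and Spred1 stood at 0.722, and the most opposed pair was Spred1 and Dusp4 (-0.687). These sums share libraries and class depth, 11917 genes were compared, and the values are a description.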

How the data were processed

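Single cells of 7 subcutaneous MPNST tumors were dissociated with papain and profiled with the 10x 3′ v3.1 assay, 10000 cells loaded per tumor. The deposited values are raw UMI counts, made by the authors with Cell Ranger on mm10 per the labels; the headers carry version 8.0.0, and the methods of the study name an earlier one. The authors used Seurat 4.4 downstream. Whether intronic reads were counted is not given in the sources used here. Of the gene identifiers, 31961 (94.9%) were in GENCODE M21, from which positions were taken.

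A cell was dropped when its UMIs, genes, mitochondrial or ribosomal share lay over 3 scaled median absolute deviations from the library's median. Scrublet called 751 doublets (2.19%), which were kept, and 190 of 39347 barcodes occurred in more than 1 library. A cell took the class with the highest share of markers detected, with at least 3 markers and no rival list above 0.5 of that share. Tumor cells had no Xist UMI, and fibroblasts and pericytes had at least 1. Dendritic cells had at least 3 markers and at most 2 of 6 macrophage markers. The members, gene lists and tests were chosen with earlier results of these data known, and the scoring of classes was set after counts were seen. Named genes were the 10 members, Trp53, the 3 genes nested in Nf1, the 3 genes most correlated with each member (log2 CPM, prior count 2) and the 3 largest changes of each other list against macrophages. Results of single genes that this rule also named are in part not reported here.

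Counts were summed per tumor and class, where each tumor had at least 20 cells of the class (10 for T cell subsets), and tested with edgeR 4.0.16 (filterByExpr, TMM, robust quasi-likelihood fit, two-sided, Benjamini-Hochberg over all genes tested, threshold 0.05) in R 4.3.3. Contrasts of classes had the tumor as a block. Fits of endothelial and dendritic cells left out irradiated 2 (19 and 17 cells) and those of pericytes irradiated 4 (10 cells), a choice made after cell numbers were seen. The code was tested on simulated data. Alternatives were DESeq2 1.42.0, other scaling, no low-count filter, no cell filter, a minimum of 2000 UMIs per cell (10000 for cycling cells), removal of doublets, classes from clusters, a term for the technical set, the replicate number as a block and each tumor left out. Samples of a number were not paired, since the deviations of same-numbered tumors did not correlate positively. Intervals and limits from 3 UMIs cover counting error only.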

Additional observations from a re-analysis of the deposited data

Results flagged for a closer look

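Of 66 groups of 4 irradiated tumors, 1 per gene and class, 4 had a tumor whose gap to its nearest neighbor exceeded Dixon's critical share of the range at 95%, and chance alone flags about 1 in 20 groups. In tumor cells, Nf1 stood at 423 CPM in irradiated 4, with 322 to 333 CPM in the other irradiated tumors. In fibroblasts, Dusp4 stood at 0 CPM in irradiated 1 and at 2.19 to 2.55 CPM in the others. In dendritic cells, Spry2 stood at 4.78 CPM in irradiated 2, and in pericytes Fosl1 stood at 2.50 CPM in irradiated 3, each on 1 UMI with 0 in the others. Groups of 3 control tumors were not examined. The difference in the irradiation effect between tumor cells and macrophages, the only pair of classes tested, was called for 0 genes.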

How the results depend on the processing

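Counts of genes called for irradiation, 0 in each class, became 1 in tumor cells, 5 in macrophages, 1 in T/NK cells and 6 in fibroblasts with DESeq2, 1 in T/NK cells with the technical set as a term, and 128 in T/NK, 31 in dendritic and 53 in endothelial cells, 3 in fibroblasts and 26 in pericytes without the low-count filter. With 1 tumor left out at a time they ran from 0 to 1 in dendritic and in endothelial cells (1 without irradiated 1 in both, and without control 1 in the former), from 0 to 2 in pericytes (2 without irradiated 2) and from 0 to 1 for the difference between tumor cells and macrophages (1 without irradiated 1), and no member was among the calls. Shares of cells with a UMI were also taken after thinning to 2000 UMIs, which left out 557 tumor cells and 1617 macrophages. They gave log2 ratios of tumor cells to macrophages of 1.33 for Nf1 (1.57 from CPM) and 0.12 for Dusp4 (-0.21 from CPM, a reversal). For Spry4 the ratio was 7.39, but only 0.036% of the 11208 thinned macrophages had a UMI of it. Spry4 did not pass the low-count filter in macrophages, so that this ratio is not read as a fold. With library totals, Spred1 against macrophages reversed from -0.11 to 0.36. Same-numbered tumors correlated at -0.60 to -0.03 in tumor cells and -0.62 to -0.25 in macrophages, and the replicate block gave 0 calls in each irradiation fit. Over all values of single members, 1661 kept their side of the threshold, some of them uncalled and with a change of sign within their error. A call was lost by 33 and gained by 13, 36 without a call moved by more than their error, and 1 reversed with a call. The causes were not tested. Median depth was lowest in T/NK cells (3192 UMIs per cell) and counts were fewest in dendritic cells and pericytes (200 and 186 cells), which limits values there.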
